A study of Drosophila melanogaster with 12 samples.

Results

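The RNAs described here are 150 antisense RNAs of Drosophila melanogaster, noncoding features that FlyBase names with the prefix asRNA: because they lie on the strand opposite another gene. The deposited counts list 465 such features among 17558. The 150 with the highest raw counts summed over 6 ovary libraries were set aside, and of the rest the 150 with the highest raw counts summed over 6 testis libraries were taken, which left 165. These RNAs were therefore chosen by raw counts in the testis and ovary libraries, and their difference between testis and ovary is given as a description, with no test.

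Gonads were dissected from flies raised at 25 °C, either mutant for Tdrd5l, which encodes a germline Tudor domain protein, or of a control line named cas9 iso, with 3 libraries of each genotype in each tissue. Testes came from males of 1 to 2 days and ovaries from females of 0 to 1 day. The labels give ribosomal depletion for testis and poly(A) selection for ovary, and 200 ng of RNA entered each library of a kit (TruSeq RNA v2) that does not mark strand. Tissue, RNA selection and age cannot be told apart, and the sources used here do not give the Tdrd5l lesion of the mutant.

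An antisense RNA is transcribed from the strand opposite a gene and can pair with that gene's transcript. In Drosophila, long double-stranded RNA is cut by Dcr-2 into small interfering RNAs that are loaded into AGO2, with the double-stranded RNA binding proteins loqs and r2d2 as partners. Testis is known for transcribing many noncoding RNAs. Whether any RNA listed below pairs with its neighbour was not measured.

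Gene counts totalled 1390699 to 2880119 in the testis libraries and 772292 to 1647933 in the ovary libraries. Listed features took up only 3.33% to 5.02% of the unique records of a testis library and 1.95% to 3.29% of those of an ovary library. The kit does not mark strand, and the sources used here give no strand setting for the counting. From these sources alone it is not known whether the counts separate a gene from its antisense RNA. Every level below is a level of a counted feature. Counts were uneven even on shared exons. asRNA:CR43465 and Ucp4B share 100% of the exon bases of each, and had 25143 and 1008 testis counts. asRNA:CR43885, with 100% of its exon bases opposite Dred, had 86363 testis counts and Dred 3147. Of unique records, 94.9% to 96.6% in testis and 96.6% to 98.0% in ovary fell in no feature. The antisense RNAs set aside for their ovary counts held 28.8% to 49.5% of the gene counts of an ovary library. In the testis libraries they held 5.12% to 7.88%. Whether reads were counted on the strand of their transcript or on the opposite one was not tested. A higher count on an antisense feature is therefore not read as more antisense RNA than RNA of the gene. Summed testis germline markers stood at 4781 to 10833 CPM, counts scaled to 1000000 per library, in the testis libraries, and at 8.80 to 36.8 CPM in the ovary libraries, where 11 of the 16 markers had 0 counts in each genotype. Summed ovary germline and follicle markers, 15 genes, stood at 2086 CPM in mutant ovary replicate 2 and at 285 to 565 CPM in the other ovary libraries. In the testis libraries they stood at 349 to 474 CPM, so the ranges overlapped. The control ovaries had 0 counts for the eggshell genes Vm26Aa, Vm26Ab and psd.

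The ranking by raw counts did not make these RNAs a testis-enriched set. In CPM, only 72 of the 150 (48.0%) had a higher mean in the 6 testis libraries than in the 6 ovary libraries, and 55 (36.7%) had every testis library above every ovary library. A testis share above 90% of the summed CPM was seen for 42 and a share under 10% for 13. Of the antisense RNAs set aside, 6 of 150 had the higher mean in testis, and of the remaining ones 46 of 165. A description as seen mainly in testis therefore goes against the CPM of 78 of these RNAs, and they are called the testis-ranked antisense RNAs here.

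The values at the limits of the ranking were close together. The last RNAs set aside for their ovary counts were asRNA:CR42860, asRNA:CR43916 and asRNA:CR44119 with 3186, 3148 and 3035 counts, and the first ones kept were asRNA:CR46020, asRNA:CR44891 and asRNA:CR43787 with 3030, 2868 and 2837. The last testis-ranked RNAs were asRNA:CR45133, asRNA:CR44897 and CR46020 with 295, 289 and 287 testis counts, and the first left out were asRNA:CR44045, asRNA:CR45466 and asRNA:CR45867 with 280, 276 and 269. CR46020 thus stood at both limits.

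**Figure D1:**
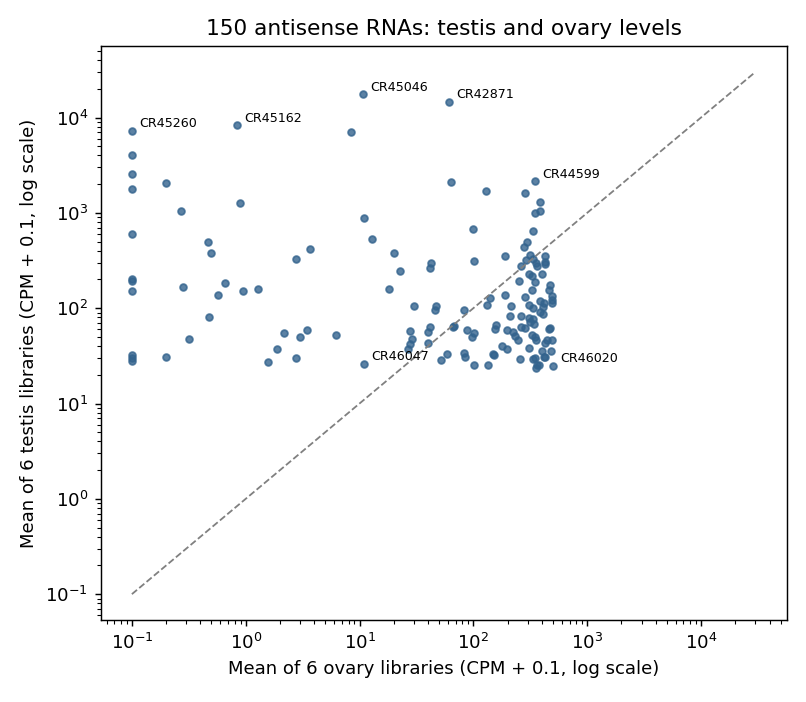
Mean CPM of the 150 testis-ranked antisense RNAs in 6 testis libraries (vertical, CPM + 0.1, log scale) against 6 ovary libraries (horizontal, CPM + 0.1, log scale), 1 point per RNA; the dashed line marks equal levels. Of the points, 72 lie above the line, and the 11 RNAs with 0 ovary counts stand at the left edge.

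The testis-ranked antisense RNAs were short and mostly lay across coding sequence. Their exons spanned 249 to 5545 bases (median 812.5), and 78 of 150 had a single exon. They lay on 2L (23), 2R (34), 3L (39), 3R (29), X (22) and the fourth chromosome (3). For 97 of them at least 50% of their exon bases lay opposite exons of 1 gene, called the partner here, and 50 shared fewer exon bases with a gene on the other strand. Of the 97 partners, 96 were protein-coding and 94 shared coding bases. The antisense RNA lay inside the partner in 57 pairs, over its 5′ end in 21, over its 3′ end in 11 and spanned it in 8. Exon bases of a gene on the same strand overlapped 6 of the 150, whose counts are uncertain for that reason.

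A few RNAs made up most of the counts. The testis-ranked RNAs had 287 to 212346 testis counts over the 6 libraries (median 1197), and the 5 most counted held 56.2% and the 12 most counted 73.2% of the sum. All 150 passed the filter on low counts in testis and 112 passed it in ovary, and 149 had counts in each testis library. Together they held 59.6% of the counts of all antisense RNAs in testis and 6.03% in ovary.

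The most counted was CR45046 (asRNA:CR45046, FBgn0266406, minus strand of 3R, 21878672 to 21884101, coordinates of BDGP6.54), which spans CG31465. Mutant testis libraries 1, 2 and 3 held 45686, 38562 and 36333 counts of it and the control testis libraries 26459, 29994 and 35312. The ovary libraries held 1, 6 and 2 counts in the mutant and 25, 21 and 5 in the control. CG31465, on the other strand, had 168, 182 and 35 counts in mutant testes, 36, 59 and 96 in control testes and 0 in all 6 ovary libraries. Both strands of this locus were thus counted nearly only in testis, with far more counts on the antisense side.

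The second was CR42871 (asRNA:CR42871, FBgn0265295, minus strand of 3L, 14034531 to 14036836), which spans CG6661. It had 39425, 31838 and 28411 counts in mutant testes and 25571, 22482 and 28693 in control testes. CG6661 had 1240, 1135 and 322 counts in mutant testes and 333, 461 and 578 in control testes. In the ovary libraries the antisense RNA had 23 to 83 counts, and its ovary levels by genotype are given with CG6661 further on.

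CR45162 (asRNA:CR45162, plus strand of 3L, 21268601 to 21269142), inside CG9389, had 18421, 18298 and 16318 counts in mutant testes and 14062, 16012 and 15982 in control testes. Over all 6 ovary libraries the highest count was 2. Its partner was also a gene of testis, with 473 to 1720 counts per testis library and 10 to 55 per ovary library. CR45260 (asRNA:CR45260, minus strand of 2L, 8862610 to 8867511), which shares under 50% of its exon bases with CG32987, had 21205, 16371 and 14372 counts in mutant testes and 11005, 11535 and 14405 in control testes, and 0 in ovary. CR43885 (asRNA:CR43885, plus strand of 3L, 19543100 to 19543622), inside Dred, had 10388 to 19139 counts per testis library and 3 to 18 per ovary library.

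The next ones were likewise counted mostly in testis. CR46054 (asRNA:CR46054, plus strand of 3R, 22337064 to 22337669), opposite CG5388, had 6353 to 11454 counts per testis library, and CR46069 (asRNA:CR46069, plus strand of 2L, 2517205 to 2518845), opposite CG3528, had 3523 to 7713. Neither had a count in ovary. CR45943 (asRNA:CR45943, opposite CG13255) had 2763 to 6801 counts per testis library and 31 to 141 per ovary library. CR43426 (asRNA:CR43426, opposite CG32462) had 2629 to 5292 counts per testis library and 0 in ovary, and CR45955 (asRNA:CR45955, opposite CG32444) had 2566 to 4312 and 22 to 391. Groups of both genotypes overlapped in testis for each of the 12 most counted RNAs once libraries were scaled.

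Some of the most counted RNAs face genes of known function. CR44599 (asRNA:CR44599, minus strand of 2L, 13384822 to 13385403) lies inside loqs, a double-stranded RNA binding partner of Dicer proteins. It had 5825, 4669 and 4036 counts in mutant testes and 3259, 4028 and 4349 in control testes, and 254 to 397 per ovary library. loqs itself had 492, 477 and 192 counts in mutant testes and 104, 232 and 309 in control testes. CR44599 was the only testis-ranked RNA whose partner was on the list of 12 genes of the double-stranded RNA and small interfering RNA pathway.

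CR43465 (asRNA:CR43465, minus strand of 2L, 5969859 to 5971025) lies opposite Ucp4B, a mitochondrial uncoupling protein gene. It had 5768, 4990 and 4058 counts in mutant testes, 2959, 3452 and 3916 in control testes and a single count over the ovary libraries. Ucp4B had 80 to 277 counts per testis library and 9 to 38 per ovary library. CR44235 (asRNA:CR44235, named after its values were seen) lies opposite d-cup, one of the cup genes transcribed after meiosis in spermatids. It had 1888 to 3523 counts per testis library, d-cup had 232 to 512, and the ovary libraries held 0 to 2 counts of CR44235 and 0 of d-cup.

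Of the 150 RNAs, 11 had 0 counts over the 6 ovary libraries, which held 6053419 gene counts. Against a floor of 3 counts over these libraries, the share of counts in testis was at least 14263-fold higher for CR45260, at least 7883-fold higher for CR46054 and at least 5024-fold higher for CR46069. For the least counted of the 11, asRNA:CR44287 with 338 testis counts, the bound was at least 54.2-fold. These bounds cover counting error only, and of all 17558 features 5348 had no ovary count. They also compare ribosomal depletion in testis with poly(A) selection in ovary, so tissue and RNA selection cannot be told apart in them. In bulk tissue, fewer cells of a type and less RNA per cell cannot be told apart either.

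At the other end stood RNAs whose CPM was far higher in ovary. CR46020, inside trx, which encodes a trithorax group histone methyltransferase, averaged 24.8 CPM in testis and 505 CPM in ovary, a testis share of 4.68%. asRNA:CR44897, inside robo2, a receptor for Slit in axon guidance, had a testis share of 6.19%. asRNA:CR46082, inside the adenosine receptor gene AdoR, had 6.31%, and asRNA:CR43614, over the 3′ end of CG3626, had 6.64%. These RNAs entered the ranking because their raw testis counts were next in line after the ovary-ranked RNAs had been set aside.

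In 57 of the 97 pairs (58.8%) the antisense RNA and its partner had the higher mean CPM in the same tissue, and in 40 (41.2%) in different ones. Among the 97, 53 antisense RNAs had the higher mean CPM in testis, and 43 of their partners (81.1%) did too. Of the 44 antisense RNAs with the higher mean in ovary, 30 partners (68.2%) had the higher mean in testis. Over all protein-coding genes with counts, 8330 of 12830 (64.9%) had the higher mean in testis. The share of partners of ovary-higher RNAs is close to this background, and none of these shares was tested, since the rule used these counts.

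Per kilobase, the antisense side of a pair was usually counted more densely than the gene on the other strand. In control testes 77 of 97 pairs (79.4%) had more counts per kilobase of exon on the antisense RNA, with a median log2 density ratio of 3.46. In mutant testes it was 76 of 97 pairs (78.4%), with a median of 3.37, and single testis libraries gave 76 or 77 pairs and medians of 3.13 to 3.90. In ovary libraries, where pairs with at least 10 counts were used, it was 70 of 82 pairs (85.4%) in the control and 67 of 79 (84.8%) in the mutant, with medians of 6.56 and 5.63. The pairs with less shared sequence gave a like share, 44 of 50 (88.0%), in control testes.

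Other antisense RNAs differed in this share. Among those set aside for their ovary counts, 93 of 112 pairs (83.0%) were denser on the antisense side in control testes and 113 of 113 in control ovaries. Among the remaining, less counted RNAs it was 32 of 78 pairs (41.0%) in control testes, with a median log2 ratio of −0.98, and 42 of 61 (68.9%) in control ovaries. These sets were ranked by the counts that enter the ratio, so their order is a description.

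**Figure D2:**
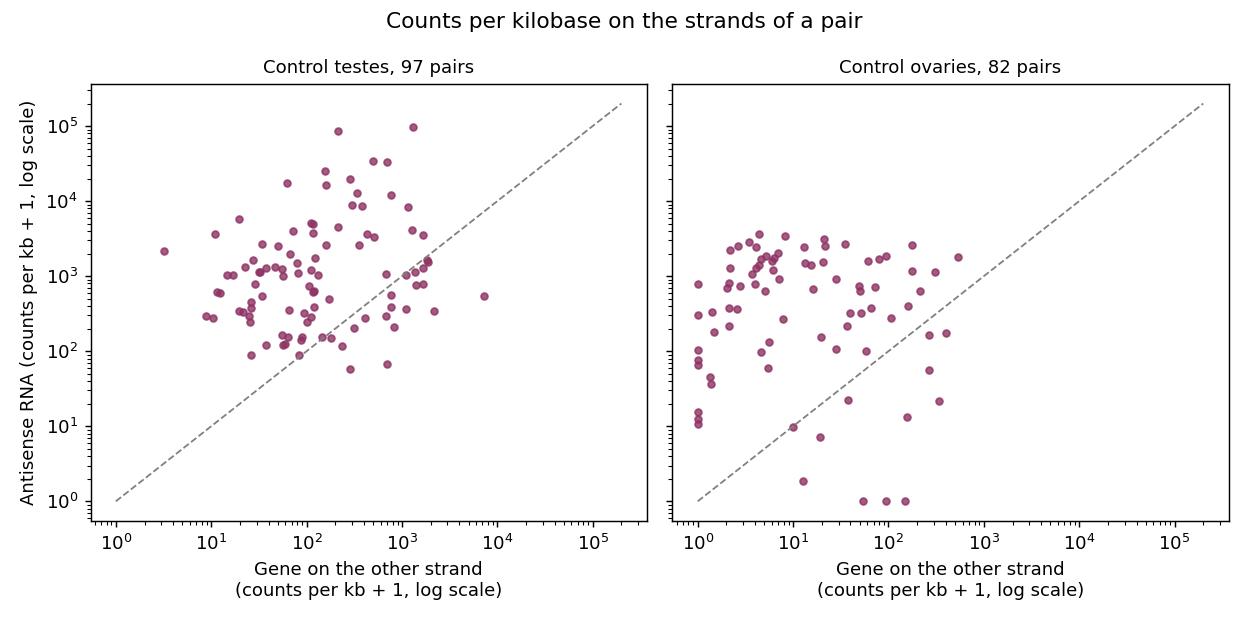
Counts per kilobase of exon of the antisense RNA (vertical, + 1, log scale) against the gene on the other strand (horizontal, + 1, log scale) in control testes (97 pairs, left) and control ovaries (82 pairs, right), summed over 3 libraries, with a dashed line of equal density. Above the line lie 77 pairs in testes and 70 in ovaries.

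The extremes of this ratio differ in kind. The highest log2 density ratio in control testes was 9.94, for asRNA:CR45268 inside CG43325, with 1860 counts against 3. CR43885 and Dred followed at 8.67, with 38460 counts against 1168, then asRNA:CR45124 inside PlexB, a semaphorin receptor gene, at 8.50, asRNA:CR45538 inside CG10970 at 8.28, CR45046 at 8.13 and CR45943 at 7.37. For CR44599 the antisense side had 19993 counts per kilobase and loqs 282. The antisense features of these pairs thus held counts at a density far above that of the genes. Whether these reads came from the antisense RNA or from the gene itself was not tested.

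The lowest ratios belonged to pairs in which the protein-coding gene led in testis. asRNA:CR43471 inside CG34316 had 338 counts against 6544 in control testes, a log2 density ratio of −3.71, but 94 against 17 in control ovaries, a ratio of 3.03. asRNA:CR45686 over the 3′ end of CG42676 had −2.64 in testes and 9.38 in ovaries, and CR46082 with AdoR had −2.33 and 8.36. In these 3 pairs the denser side was the protein-coding gene in testis and the antisense RNA in ovary. asRNA:CR46047 with CG18294 stood at −3.41, asRNA:CR44850 with l(2)34Fc at −1.97 and asRNA:CR45886 with CG14111 at −1.61 in control testes. Their partners had 0 counts in control ovaries.

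In mutant testes 1 of the testis-ranked antisense RNAs and 1 of their partners were called with all libraries, and 31 RNAs were called without mutant testis replicate 3. The comparison of mutant with control testes used edgeR's quasi-likelihood test over all 9768 features that passed the filter, with p-values adjusted by the Benjamini-Hochberg method over all of them and called below 0.05. Of the 150 antisense RNAs 1 was called, CR46047, which was higher in the mutant, beside 92 of all features, or 0.942%, with 0.317% higher and 0.624% lower. Of the 90 partners tested 1 was called, CG42700, which was higher. Log2 fold changes of the 150 ran from −1.40 to 1.85, with a median of −0.15 against 0.03 for all features, and 55 (36.7%) lay above 0, against 52.6% of all features tested. This lean was not particular to them. The antisense RNAs set aside had a median of −0.18, with 29 of 148 tested above 0. The remaining ones had −0.15, with 37 of 85 above 0. Features with an exon on the other strand had a median of −0.06. Standard errors of the 150 ran from 0.33 to 1.21 (median 0.35), which limits how small a change these libraries could show.

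CR46047 (FBgn0267714, plus strand of 3L, 19474731 to 19475642) is a single-exon RNA of 912 bases that spans CG18294. Its scaled level (TMM-scaled CPM) was 34.2, 35.8 and 55.0 in mutant testes and 11.6, 12.9 and 9.96 in control testes. All mutant libraries were above all control libraries, with means of 41.7 ± 11.6 and 11.5 ± 1.46 CPM (SD, n = 3 each). The log2 fold change was 1.85 (SE 0.40, edgeR adjusted p = 0.00834). It was called in 14 of 15 alternatives and lost with all 12 libraries in 1 model, where the edgeR adjusted p was 0.579.

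CG18294, on the other strand, was not called. It stood at 61.2, 30.6 and 87.4 CPM in mutant testes and at 85.9, 80.1 and 46.3 in control testes, so the groups overlapped (log2 fold change −0.25, edgeR adjusted p = 0.938). In the ovary libraries CG18294 had 0 counts, and CR46047 had 22, 30 and 19 counts in the mutant and 0, 1 and 1 in the control. That is 71 against 2 counts, a ratio of library shares of 26.4 with a 95% counting interval of 7.05 to 222. This interval pools the reads of a group and covers counting error only, not the spread between libraries. The mutant ovary libraries were all higher, but the edgeR adjusted p was 0.421 in ovary, and 4 of 15 alternatives called it, among them DESeq2 with an adjusted p of 0.0346.

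The partner that was called lies opposite an antisense RNA that was not. CG42700 is the gene around CR45271 (asRNA:CR45271, FBgn0266809, minus strand of 2R, 12296495 to 12297805). CG42700 stood at 951, 724 and 1541 CPM in mutant testes and at 47.2, 90.7 and 58.9 in control testes (log2 fold change 4.03, edgeR adjusted p = 8.24e-09), and it was called in 15 of 15 alternatives. CR45271 stood at 41.0, 40.7 and 36.6 CPM in mutant testes and at 32.5, 31.6 and 23.4 in control testes. The groups did not overlap, but the log2 fold change of 0.45 was not called (edgeR adjusted p = 0.865).

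In ovary libraries the order of this pair was the reverse of that in mutant testes. CR45271 had 43.3 to 133 CPM there, and CG42700 had 2 counts in all in the mutant and 3 in the control. In control testes the antisense RNA was denser per kilobase, at 125 against 58.0 counts. This RNA, too, was ovary-higher in CPM, at 82.6 against 34.1.

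**Figure D3:**
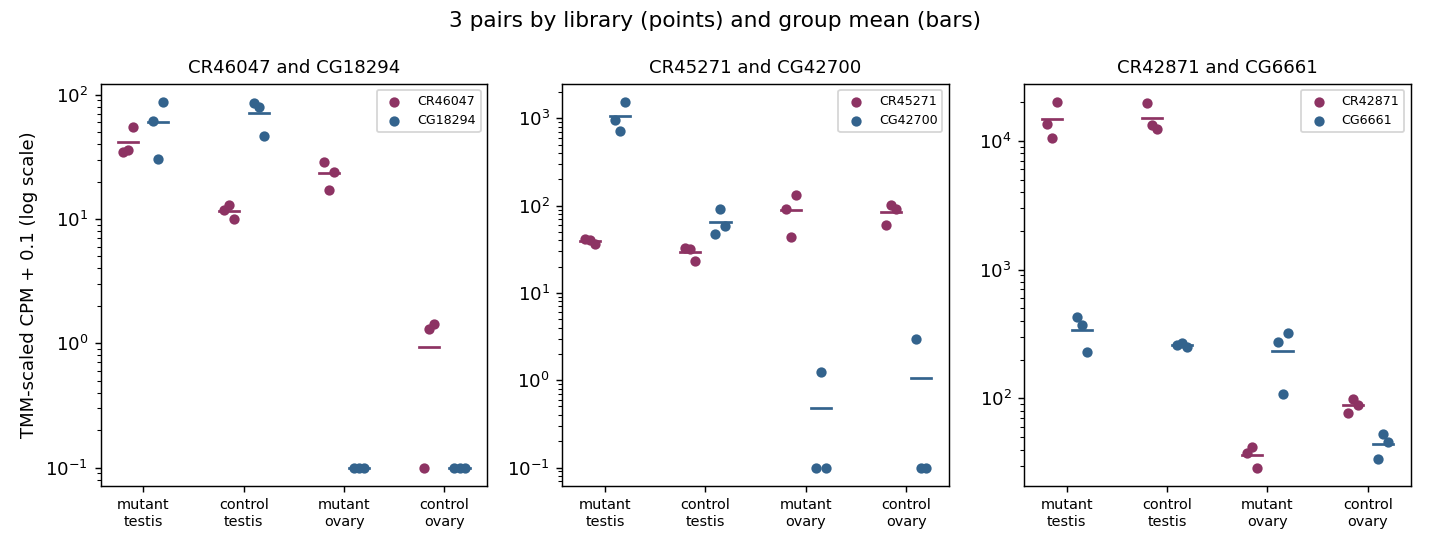
TMM-scaled CPM + 0.1 (log scale) of 3 antisense RNAs and their partners in the 4 groups; points are libraries (3 per group), bars are group means, and points at 0.1 had 0 counts. CR46047 is higher in mutant than in control testes while CG18294 overlaps, and CG42700 is higher in mutant testes while CR45271 is not called. In ovaries CR42871 and CG6661 differ in opposite directions, and neither is called with all libraries by edgeR.

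The balance within a pair was compared directly as the log2 ratio of antisense to partner counts (each + 1) in each testis library, which does not depend on scaling. limma over all 283 antisense pairs with at least 50 counts called 5, or 1.77%, and 1 of the 97 pairs described here. The pair called here was lower and was the only lower call among all 283 (0.353%), so that share is no separate background. It was CR45271 with CG42700, whose log2 ratio was −4.52, −4.14 and −5.37 in mutant testes and −0.53, −1.50 and −1.32 in control testes. The difference was −3.56 (SE 0.42, limma adjusted p = 0.00770), toward counts on the protein-coding feature in the mutant. Which strand's RNA these reads came from was not tested. Without control testis replicate 3 it was −3.66 and no longer called (limma adjusted p = 0.0533). For CR46047 with CG18294 the mean log2 ratio was −0.42 in mutant and −2.52 in control testes. This difference toward counts on the antisense feature was not called (limma adjusted p = 0.0563).

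Cyp9c1, a cytochrome P450 gene facing CR43787, is named after its values were seen. It had 369, 322 and 197 counts in mutant testes and 0, 48 and 15 in control testes, with no overlap after scaling. Its log2 fold change of 3.39 was not called (edgeR adjusted p = 0.280), and 6 of 15 alternatives called it. CR43787 had 107, 111 and 111 counts in mutant testes and 65, 76 and 92 in control testes, and its groups overlapped after scaling.

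**Figure D4:**
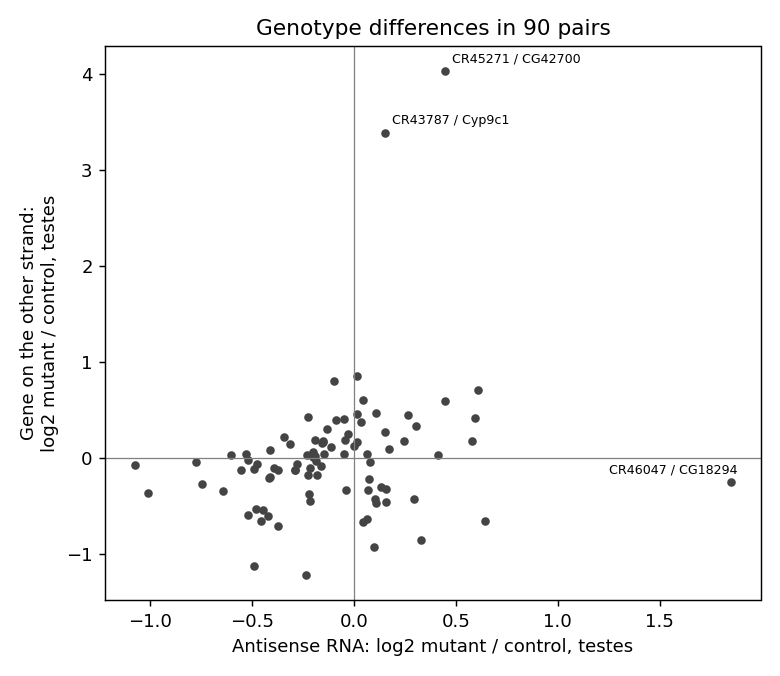
Log2 fold changes of mutant over control testes for the antisense RNA (horizontal) and its partner (vertical) in the 90 pairs with both tested; each point is a pair. CR45271 with CG42700 and CR43787 with Cyp9c1 stand high on the partner axis, and CR46047 with CG18294 stands far out on the antisense axis; the other pairs cluster around 0.

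Across the 90 pairs the fold changes of both sides had Pearson's r of 0.23 and Spearman's rho of 0.30, and 52 (57.8%) had the same sign. This is a description across pairs that share libraries and their depth. In the ovary 29 pairs gave an r of 0.05, with 18 of the same sign.

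Of the 150 antisense RNAs, 10 had testis groups that did not overlap, 4 higher and 6 lower in the mutant, beside 11.8% of all features (5.67% higher and 6.12% lower). The higher ones were CR46047, CR45271, asRNA:CR45520 opposite the mitochondrial sirtuin gene Sirt4 and asRNA:CR45891 opposite CG9593. Those of the 10 given here beyond CR46047 and CR45271 are named after their values were seen. asRNA:CR45802, opposite zormin, which encodes a muscle sarcomere protein, stood at 11.6, 22.3 and 21.1 CPM in mutant testes and at 78.9, 28.7 and 38.1 in control testes. Its log2 fold change of −1.40 was the lowest of the 150 and not called (edgeR adjusted p = 0.110). CR46020 inside trx stood at 12.5 to 20.4 CPM in mutant and 25.1 to 41.0 in control testes, and asRNA:CR43425 opposite the synaptic gene unc-13 at 17.7 to 47.9 and 48.6 to 69.3.

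A single library weighed heavily on these counts. Mutant testis replicate 3 had 11.9% of its feature counts in the testis-ranked RNAs, against 8.84% and 7.77% in the other mutant testis libraries and 11.1%, 9.80% and 8.84% in the control testis libraries. It also had the lowest share in features without an exon on the other strand, 28.9%, against 31.5% to 45.0% in the other testis libraries. Summed testis germline markers stood at 4781 CPM in it, against 9683 and 10833 in the other mutant testis libraries and 4993, 6402 and 7161 in the control testis libraries. Among them dj, a sperm tail gene, had 233 CPM in it against 925 and 1165 in the other mutant libraries, and the protamine gene ProtB had 59.1 against 238 and 284. The markers did not fall alike. topi had 18.3 CPM against 20.1 and 30.6, and bam was not lower, at 4.87 CPM against 3.47 and 4.74. Without this library 31 of the 150 were called, 1 higher and 30 lower, beside 6.83% of all 10619 features tested (2.7% higher and 4.12% lower), and so were 12 partners. The RNA called higher was CR46047. Of the 15 testis germline markers tested, 13 had a log2 fold change above 0 (median 0.59) and 0 were called with all libraries, while without that library 14 were above 0 (median 0.89) and 7 were called higher. Summed gut markers, 7 genes, were 6.93 to 12.2 CPM in mutant and 18.7 to 25.6 CPM in control testes. Most of this sum was Amy-p, with 5.56 to 10.96 CPM in mutant and 15.8 to 20.6 CPM in control testes. Only 1 gut gene was tested, so the sum is not read as a difference in a cell type. With all libraries 1 of 4 neuronal markers had a log2 fold change above 0 (median −0.77). Of the accessory gland markers 4 of 4 tested did (median 0.33), and 0 of either list were called. The part of these markers in the lower calls was not tested.

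Of the 30 called lower without that library, asRNA:CR17025 had the smallest p, with a log2 fold change of −1.56 and an edgeR adjusted p of 1.66e-04. asRNA:CR43474 followed with −1.31 and CR43425 with −1.54 (edgeR adjusted p = 0.00118 and 0.00151). They are named after their values were seen. With the share of counts in features without an opposite exon as a term in the model, 4 of the 150 were called, beside 1.78% of all features (0.87% higher and 0.911% lower). CR46047 and CR45520 were higher, and CR45124 and asRNA:CR46034 were lower. The median of the 150 moved with the library left out, from −0.53 without mutant testis replicate 3 to 0.06 without mutant testis replicate 2, and was 0.00 without control testis replicate 1, so their direction as a group depended on single libraries.

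**Figure D5:**
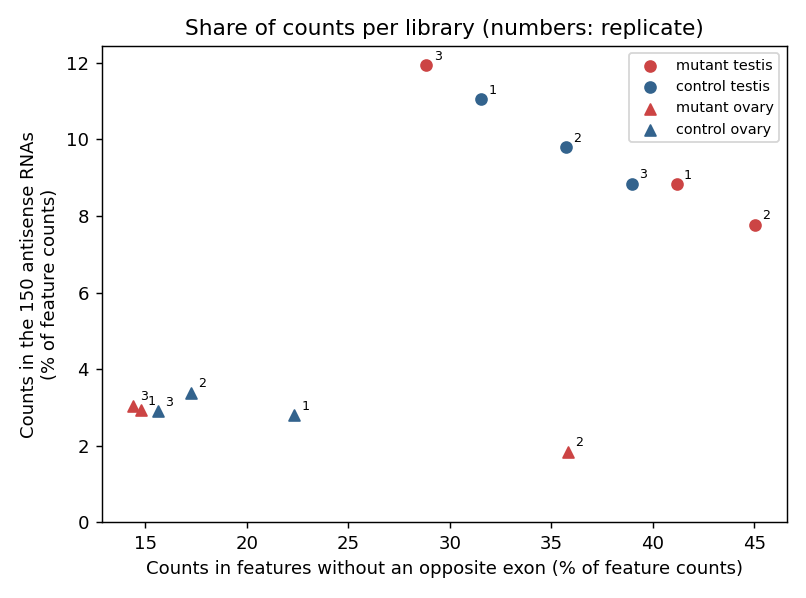
Percent of feature counts held by the 150 testis-ranked antisense RNAs (vertical) against the percent held by features without an exon on the other strand (horizontal) in the 12 libraries; circles are testis, triangles ovary, red mutant and blue control, and numbers give the replicate. Testis libraries lie between 7.77% and 11.9% and ovary libraries between 1.84% and 3.39%, with mutant testis replicate 3 at the left of the testis group and mutant ovary replicate 2 at the right of the ovary group.

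In mutant ovaries no antisense RNA was called by edgeR with all libraries. Of the 112 tested, 0 were called, beside 0% of 4683 features. At an unadjusted p under 0.05 there were 8 of 112 (7.14%), against 184 of all (3.93%). DESeq2 called 1 of the 112, beside 0.299% of all features. Groups did not overlap for 1 RNA that was higher and 10 that were lower, beside 9.97% of all features (4.31% higher and 5.66% lower).

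CR42871 stood at 37.6, 41.6 and 28.9 CPM in mutant ovaries and at 76.7, 99.5 and 88.1 in control ovaries. Its partner CG6661 stood at 275, 108 and 319 CPM in mutant ovaries and at 33.6, 52.7 and 46.0 in control ovaries. Neither pair of groups overlapped, with the antisense RNA lower and the gene higher in the mutant. The log2 fold changes were −1.28 (edgeR adjusted p = 0.724) and 2.40 (edgeR adjusted p = 0.484), neither called. CG6661 was called in 4 of 15 alternatives, and without mutant ovary replicate 2 its edgeR adjusted p was 6.11e-04. CR42871 was called in 1, with the share of counts in features without an opposite exon as a term (edgeR adjusted p = 0.0355), which called 3 of the 112 beside 1.79% of all features.

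Mutant ovary replicate 2 stood apart, with 1.84% of its feature counts in the testis-ranked RNAs against 2.80% to 3.39% in the other ovary libraries, and 35.8% in features without an opposite exon against 14.4% to 22.3%. Summed muscle markers stood at 3968 CPM in it, against 394 and 412 in the other mutant ovaries and 883 to 2672 in the control ovaries. Muscle was not alone in this. Ovary germline and follicle markers, somatic cyst and hub markers (483 CPM against 133 to 254 in the other ovary libraries) and the lists of double-stranded RNA, RNA surveillance and 3′ end genes were also highest in it. Accessory gland and fat body markers were lowest in it, and gut, neuronal and testis germline markers were neither. The part of mutant ovary replicate 2 in the ovary results was measured by leaving it out. Then 1 antisense RNA was called, CR46047, beside 1.14% of all features. asRNA:CR43468, opposite Lfg, a gene of the family of Bax inhibitors, stood at 49.2, 23.4 and 54.0 CPM in mutant ovaries and at 95.9, 1351 and 107 in control ovaries. Its log2 fold change of −3.62 rested on control ovary replicate 2 (edgeR adjusted p = 0.999), and was −1.25 without it. asRNA:CR45518, opposite CG12730, stood at 144, 108 and 224 against 339, 476 and 274 CPM (edgeR adjusted p = 0.999).

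Whether the genotype difference itself differed between testis and ovary was tested as an interaction in 1 edgeR model of the 12 libraries. It called 0 of the 150 antisense RNAs, beside 0.0291% of 10321 features, and at an unadjusted p under 0.05 there were 9 of the 150 and 550 of all. DESeq2 called 0 of the 150 as well. The smallest p belonged to CR45046, whose difference in log2 fold change, testis minus ovary, was 3.05 (edgeR adjusted p = 0.570) and which had 1 to 25 counts per ovary library. CR43468 had 3.36 (edgeR adjusted p = 0.662) and 0.89 without control ovary replicate 2, CR46047 −2.84 (edgeR adjusted p = 0.756) and asRNA:CR44054 2.30 (edgeR adjusted p = 0.756).

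Listed genes that act on double-stranded RNA, RNA decay or 3′ ends were not called in either tissue with all libraries. Of 12 listed genes of the double-stranded RNA and small interfering RNA pathway 11 were tested in testis and 0 called by edgeR, with 0 at an unadjusted p under 0.05 and a median log2 fold change of 0.11 against 0.03 for all features. Of the listed nuclear RNA surveillance genes, which include exosome subunits, 12 were tested and 0 called (median −0.13, with 2 at an unadjusted p under 0.05). Of the listed 3′ end formation genes, which include cleavage and polyadenylation factors, 14 were tested and 0 called (median 0.00, with 0 at an unadjusted p under 0.05). In ovary 8, 7 and 7 genes of these lists were tested and 0 called, with 0 at an unadjusted p under 0.05, and DESeq2 called 0 genes of these lists in either tissue. Summed levels of the first list were 1267 to 1288 CPM in mutant testes and 1182 to 1238 CPM in control testes, and those of the surveillance list 665 to 769 CPM in mutant and 807 to 851 CPM in control testes. Without mutant testis replicate 3, 1 of 13 surveillance genes was called lower.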

How the data were processed

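RNA-seq of 12 gonad libraries was used as the raw gene counts that the authors deposited, as 12 HTSeq files. The tools named in the submitters' processing notes are TopHat2 2.1.1 with the BDGP6 genome, HTSeq 0.9.1, FastQC and DESeq. Strand setting and annotation release of the counting were not given in the sources used here. Summary lines, 95.8% to 97.3% of records in testis and 96.9% to 98.2% in ovary, entered neither library sizes nor tests.

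Symbols, positions and exons came from Ensembl 115 (BDGP6.54), which held 17252 of the 17558 features and 503 antisense RNAs, 465 of them in the files. An antisense RNA was paired with the opposite-strand gene that shared most exon bases, among annotated features in the files. At 50% or more that gene is its partner. Densities are counts per kilobase of exon in pairs with at least 10 counts.

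Genotypes were compared within each tissue, and as an interaction over 12 libraries, with edgeR 4.0.16 (filterByExpr minimum count 10, TMM, two-sided robust quasi-likelihood F test, adjusted by Benjamini-Hochberg over all features, called under 0.05). The balance of pairs was fitted with limma 3.58.1 (trend, robust, pseudocount 1). Levels are TMM-scaled CPM, mean ± SD, in genotype comparisons and unscaled CPM between tissues. Scripts were tested on simulated data.

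The labels call the replicates biological. Chi-square tests of replicate pairs gave 5.70 to 32.6 per degree of freedom in testis and 4.65 to 75.2 in ovary, so each library was counted as 1 sample. Same-numbered libraries did not deviate together (correlations of −0.34 to 0.01 in testis and −0.53 to 0.28 in ovary), so replicate numbers were not taken as pairs.

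The members and lists were chosen with earlier results of these data known. Named RNAs are the 12 most counted, those called or, where 0 were called, the 4 with the smallest p, called partners and pairs, those at the limits of the ranking, those with the extreme density ratios or tissue shares, and those facing a listed gene; others are said to be named after their values were seen. Alternatives were DESeq2 1.42.0 and its size factors, library size alone, upper quartile scaling, a filter at 1 CPM in 3 libraries or none, all 12 libraries in 1 model, a replicate block, the share of counts in features without an opposite exon as a term, other pseudocounts, count minimums and overlaps for pairs, and leaving out each library. No sequence is shown, since no genome sequence was used here.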

Additional observations from a re-analysis of the deposited data

How the results depend on the processing

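CR46047 higher in mutant testes kept its direction in 15 alternatives (log2 1.59 to 1.98), and CG42700 its call in 15 (log2 3.65 to 4.32). Counts of calls moved more. Of the 150 antisense RNAs, 1 was called in testis, against 2 with no filter, 4 with the share of counts in features without an opposite exon as a term, 0 with all 12 libraries in 1 model and 1 to 31 with each library left out; 31 came without mutant testis replicate 3 and 2 without control testis replicate 2. Of their partners 1 was called, against 2 with library size alone, with no filter and with that share as a term, and 1 to 12 with each library left out (12 without mutant testis replicate 3, and 2 without control testis replicate 1, 2 or 3). Of all features in testis 92 were called, against 58 with library size alone, 9 with all 12 libraries in 1 model, 174 with that share as a term and 49 to 725 with each library left out (725 without mutant testis replicate 3, 49 without mutant testis replicate 2 and 52 without control testis replicate 1).

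In ovary 0 features were called by edgeR, against 14 by DESeq2, 5 with all 12 libraries in 1 model, 3 with a filter at 1 CPM, 7 with no filter, 84 with that share as a term, 1 with upper quartile scaling and 0 to 55 with each library left out (55 without mutant ovary replicate 2). The antisense RNAs called went from 0 to 1 by DESeq2, 1 with all 12 libraries, 3 with that share as a term and 0 to 1 with each library left out; their partners went from 0 to 1 by DESeq2, with no filter and with that share as a term, and 0 to 1 with each library left out. The interaction called 3 features, against 12 by DESeq2, 5 with DESeq2 size factors or upper quartile scaling, 6 with no filter and 1 to 6 with each library left out, and 0 of the 150 in each of 19 alternatives. In the balance of pairs, 5 pairs and 1 of these pairs were called, against 9 and 3 at a pseudocount of 5, and 1 to 5 and 0 to 1 with each library left out (0 without control testis replicate 3). The log2 fold change of CG18294 ran from −0.63 to 0.072 with each library left out, and turned positive without mutant testis replicate 2. The cause of these shifts was not tested.

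With the replicate block, 79 features, 1 of the 150 antisense RNAs and 2 partners were called in testis, 0 in ovary, 2 in the interaction and 2 pairs in the balance. The denser antisense side, 77 of 97 pairs in control testes, became 121 of 147 with any shared exon base and 44 of 51 at 80% of exon bases, 82.3% and 86.3%, and 77 to 78 with each library left out. Ranking by CPM kept 149 of the 150 RNAs, ranking per kilobase 116 and ranking by control libraries alone 142. In ovary, 38 of the 150 were too little counted to be tested. Where a library is left out, 2 libraries of that group remain.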

Other observations

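Some of the testis-ranked antisense RNAs were not paired with a protein-coding gene. They include asRNA:CR45182 (plus strand of 3L, 25843821 to 25844502), asRNA:CR44841 (minus strand of X, 18804840 to 18806363) and asRNA:CR45135 (plus strand of 2R, 10541595 to 10541995). These share no exon base with an opposite-strand gene among the annotated features that the deposited counts list, although their names mark them as antisense. Annotated genes absent from the counts were not searched. CR45182 had 524 to 753 counts per testis library and 235 to 458 per ovary library. CR44841 had 102 to 141 counts per testis library and 354 to 622 per ovary library.

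asRNA:CR45828 (minus strand of 3L, 1963213 to 1963700) faces another antisense RNA, asRNA:CR45827, on the opposite strand. CR45828 had 96, 66 and 75 counts in mutant testes and 27, 51 and 65 in control testes, and a single count in ovary. CR45827 had 7 to 16 counts per testis library and 29 to 47 per ovary library. The 2 RNAs thus had opposite tissue orders in raw counts, with the minus strand counted in testis and the plus strand mostly in ovary.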
